A study of Mus musculus with 8 samples.

Results

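Marked GFP regulatory T (Treg) cells were compared with unmarked GFP Treg cells across all expressed genes, in RNA from the mesenteric lymph nodes, which drain the gut. The 4 GFP libraries out of 8 in the series were chosen by their column names: 2 columns named Tomato-pos-GFP-pos (tdTomato-positive, called marked here) and 2 named Tomato-neg-GFP-pos (tdTomato-negative, called unmarked). All mice carried Foxp3DTR-GFP/Thy1.1, CD4CreER/wt and R26lsl-tdTomato/wt, so every population compared came from the same genotype. Foxp3 encodes the transcription factor that defines Treg cells. Its GFP allele also carries the diphtheria toxin receptor (DTR), and the other allele carries Thy1.1. Cre under CD4 control, active after tamoxifen, switches on the red protein tdTomato for the life of the cell and its progeny.

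Per the design text, the mice were raised on AVNM (an abbreviation that the labels leave unexplained) and on a diet defined in its amino acids. Tamoxifen marked CD4 T cells outside the thymus that lacked Foxp3, and diphtheria toxin was given over the following 3 weeks or so. Chow and fecal microbiota from specific-pathogen-free mice then replaced that regime, and cells were sorted on day 12 after colonization. A marked GFP cell therefore carried a tag set before colonization and expressed Foxp3 at the sort, while an unmarked GFP cell expressed Foxp3 without the tag. The labels give no age, sex, number of mice per library or efficiency of marking, so unmarked cells may include cells of the marked kind that escaped tamoxifen.

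Treg cells restrain immune responses and arise along 2 routes. Some mature in the thymus, while others are induced in the periphery, above all in the gut, from naive CD4 T cells that meet microbial or food antigen. Resting Treg cells circulate through lymph nodes with the help of receptors such as Ccr7, as naive T cells do. Activated or effector Treg cells lower these receptors and raise those for entry into tissue, together with inhibitory receptors, suppressor molecules and factors shared with helper T cell lineages.

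Library totals were 45074415 and 38085686 counts in the marked GFP libraries, against 45764437 and 46007968 counts in the unmarked GFP libraries. Levels are given as CPM, the count of a gene scaled to its library total and by the TMM method, with library 3 before library 4. A limit of 3 counts, the most that a count of 0 allows, came to 0.0649 to 0.0806 CPM in these 4 libraries. CPM is not divided by gene length, so levels are compared between populations and not between genes. Replicate libraries differed by far more than sampling noise and were each used as 1 replicate, with a correlation across genes of 0.968 between the marked and 0.975 between the unmarked libraries.

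Markers of CD4 T cells were high in all 4 GFP libraries. Cd3e, a subunit of the T cell receptor complex, was at 965 to 1374 CPM, and Cd4 at 372 to 507 CPM. Foxp3 had 126 and 141 CPM in marked cells, against 146 and 166 CPM in unmarked cells, a log2 fold change of -0.22 ± 0.12 (SE) that did not pass the test (adjusted p = 0.253). Its exons overlap those of Ccdc22 and Ppp1r3f, so its reads are not all its own. Il2ra, the alpha chain of the interleukin-2 receptor that Treg cells carry, had 631 and 1084 CPM in marked and 893 and 1309 CPM in unmarked cells, with the populations overlapping (adjusted p = 0.441). Markers of CD8 T cells were low. Cd8a had 0.541 and 0 CPM in marked and 4.26 and 3.34 CPM in unmarked cells, and Cd8b1 had 6.68 and 8.35 CPM in marked and 25.7 and 15.8 CPM in unmarked cells (-1.46, adjusted p = 0.0303). That call had an adjusted p of 0.108 without marked GFP 3, 0.109 without unmarked GFP 3, 0.0505 without unmarked GFP 4, 0.0557 without unmarked Thy1.1 1 and 0.0582 without unmarked Thy1.1 2. The reporter gene Thy1, which T cells express from their own locus, had 51.6 and 46.8 CPM in marked and 39.8 and 36.3 CPM in unmarked cells (adjusted p = 0.112).

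Library unmarked GFP 3 held RNA of other cells. In it, 11 genes were at 5 CPM or more and at least 10 times the highest of the other 7 libraries, against 4 such genes in marked GFP 3 and 0 in marked GFP 4 and in unmarked GFP 4. Siglech, a defining receptor of plasmacytoid dendritic cells, had 0 and 0 CPM in marked cells, against 36.8 and 0 CPM in unmarked cells. H2-Aa, a class II antigen presentation gene, had 0 and 0.269 CPM in marked cells, against 34.0 and 0.132 CPM in unmarked cells. The remaining 9 were Pld4, Csf2rb2, Ctsh, Bcl11a, Flt3, Itgax, Napsa, Cd209a and Sort1, most of them genes of dendritic cells. Of the 11, 6 were tested and 2, Pld4 and Sort1, were called lower in marked cells. Pld4 had 0 and 0 CPM in marked cells, against 25.6 and 0.572 CPM in unmarked cells (log2 fold change -12.19, adjusted p = 0.0396), and its call rests on that library, with an adjusted p of 0.116 without marked GFP 3, 0.0848 without marked GFP 4, 0.102 without unmarked GFP 3, 0.0542 without marked Thy1.1 1, 0.0541 without marked Thy1.1 2, 0.0828 without unmarked Thy1.1 1 and 0.0804 without unmarked Thy1.1 2 and a log2 fold change of -7.67 without unmarked GFP 3 and -13.15 without unmarked GFP 4. Sort1 was called at an adjusted p of 0.0443, with 0 and 0 CPM in marked cells, against 6.34 and 0.462 CPM in unmarked cells.

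The whole list of 20 plasmacytoid dendritic markers summed to 849 and 669 CPM in marked and 804 and 626 CPM in unmarked cells, with 8 and 8 of the 20 at 0 in marked libraries and 1 and 5 at 0 in unmarked libraries. Much of that sum is carried by genes that T cells also express, Ccr9 with 536 and 283 CPM in marked and 325 and 179 CPM in unmarked cells among them. The 17 conventional dendritic and class II markers summed to 175 and 192 CPM in marked and 334 and 114 CPM in unmarked cells, where Cd74 alone gave 32.8 and 49.1 CPM in marked and 174 and 33.2 CPM in unmarked cells. The class II genes H2-Ab1, H2-Eb1 and H2-DMb1 were listed at 0 in all 8 libraries, so they cannot set any library apart. Whether their reads were counted at all was not tested. The 4 genes that marked GFP 3 held in the same way were Hbb-bs and Hbb-b2, near-identical haemoglobin chains of red cells, at 15.3 and 6.27 CPM in it, Bcar1, an adaptor of integrin signalling, at 17.9 CPM, and the neuronal nitric oxide synthase gene Nos1 at 26.1 CPM. Hba-a2, a haemoglobin chain with a near-identical copy, had 29.5 and 3.55 CPM in marked and 1.64 and 0.154 CPM in unmarked cells. The natural killer gene Nkg7 was also highest there, with 116 and 26.7 CPM in marked and 23.8 and 10.1 CPM in unmarked cells. Lyz2, a myeloid enzyme, had 21.9 and 0 CPM in marked and 20.4 and 3.01 CPM in unmarked cells, high in library 3 of both populations. The part of this RNA in the gene results was not tested. Without unmarked GFP 3 the comparison below made 1543 calls in place of 1768.

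**Figure D1:**
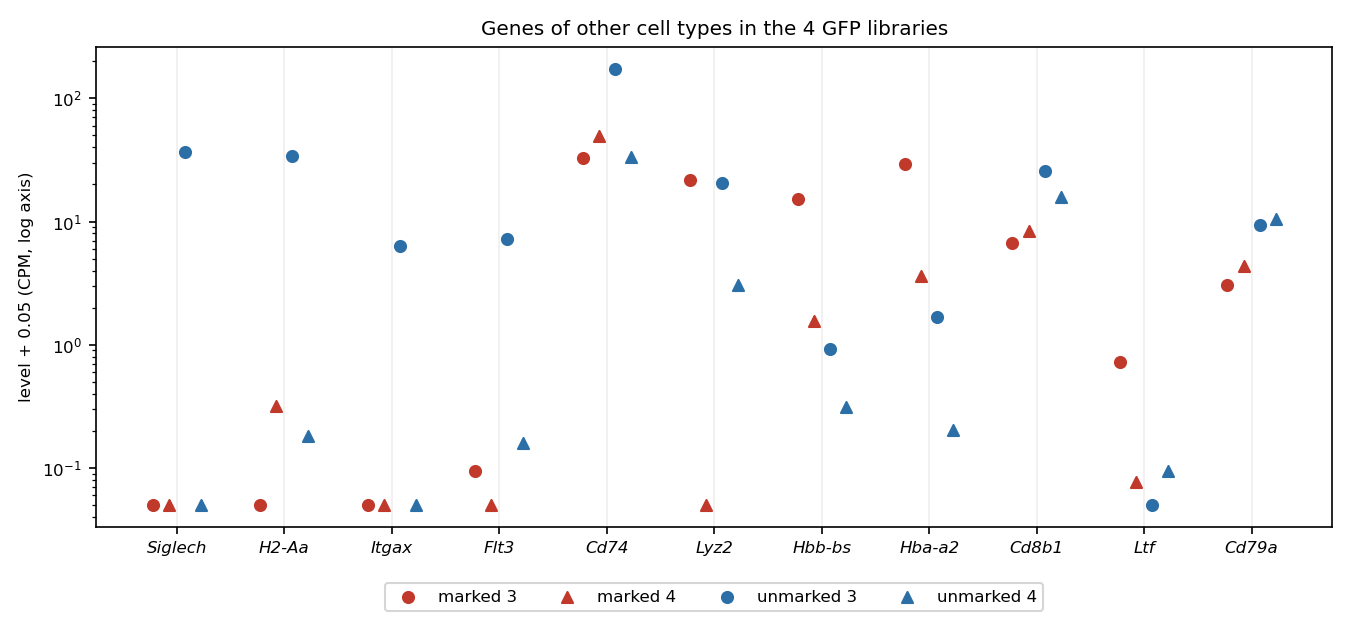
Levels of genes of other cell types in the 4 GFP libraries (y axis, CPM plus 0.05, log scale; circles library 3, triangles library 4; red marked, blue unmarked). Siglech at 36.8 CPM and H2-Aa at 34.0 CPM stand out in unmarked GFP 3, and Hba-a2 at 29.5 CPM in marked GFP 3.

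Marked GFP cells differed widely from unmarked GFP cells. Of 13989 genes tested, 1768 passed edgeR's quasi-likelihood test at an adjusted p under 0.05, which is 12.6% of genes. Of these, 873 genes (6.24%) were higher and 895 genes (6.40%) were lower in marked cells. Changes of at least 2-fold numbered 336 higher and 420 lower, and changes of at least 4-fold numbered 76 higher and 189 lower. The median log2 fold change over all tested genes was 0.03. These are bulk samples, so fewer cells of a type and less RNA per cell cannot be told apart. The labels do not say that 2 libraries of a population came from separate mice, so the tests measure the spread between libraries, which may be technical.

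**Figure D2:**
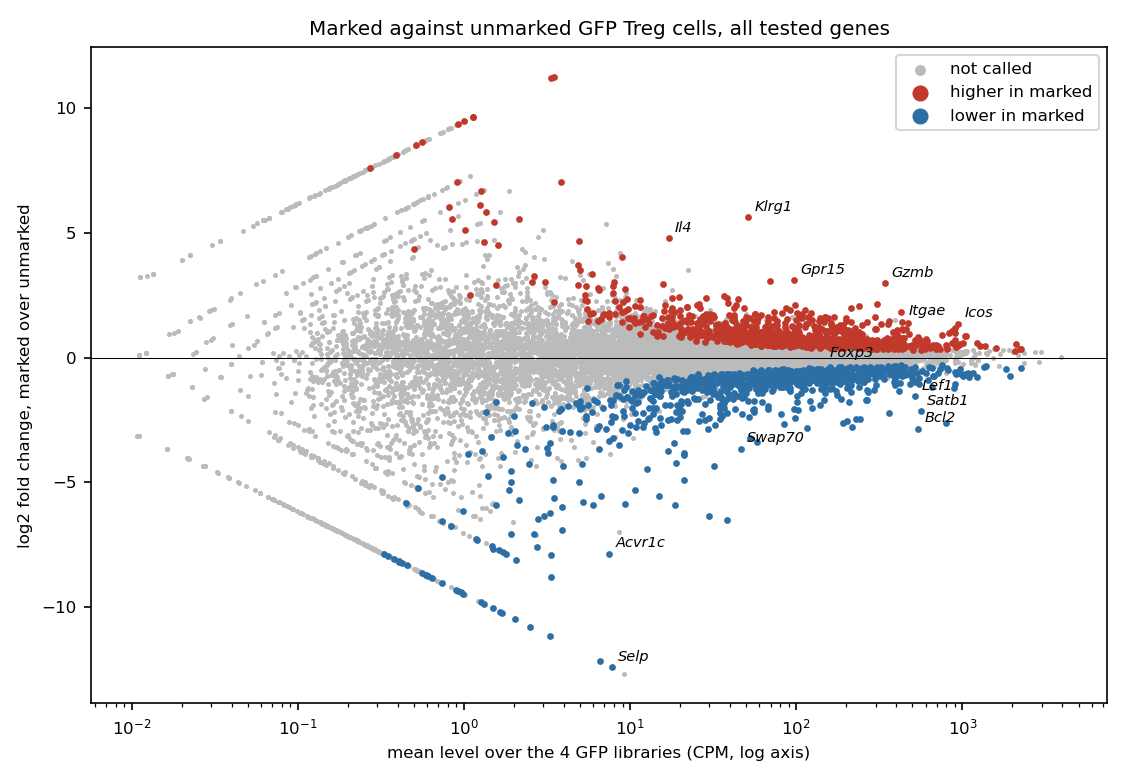
Each point is 1 of the tested genes, by mean level over the 4 GFP libraries (x axis, CPM, log scale) and log2 fold change of marked over unmarked cells (y axis), with the 873 genes called higher in red and the 895 called lower in blue. Klrg1 and Il4 lie above the other abundant genes called higher, and Bcl2 and Satb1 are among the lowest of the abundant genes called lower. The straight edges are genes with no count in one population, whose fitted values depend on the prior count.

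The test drew its estimate of spread from all 8 libraries, since 2 libraries a population leave few degrees of freedom. Thy1.1 replicates were closer together, with correlations across genes of 0.986 (marked) and 0.981 (unmarked), against 0.968 and 0.975 in GFP cells. The shared spread may therefore be too small for a contrast of GFP libraries, and the calls too many. The count of calls moved with the libraries used. It was 438 genes without unmarked GFP 4, 955 without marked GFP 3, 929 without marked Thy1.1 1, 950 without marked Thy1.1 2, 1077 without unmarked Thy1.1 1 and 1098 without unmarked Thy1.1 2. With the 4 GFP libraries alone it was 285 genes, 100 higher and 185 lower. Genes are therefore named below with the outcome of 8 further fits, each without 1 library. Of 173 named and called genes, 84 kept their call in all 8 fits. Where a call was lost, the adjusted p without that library is given, and where the fold change moved by over 1.5 times, its value is given too. Counts of list members are followed in the same way where they are 2 or more. They stand against 6.24% higher and 6.40% lower over all tested genes. The lists and their members were chosen with earlier results of these data known, so their shares are partly fixed by that choice. Changes called by how much a gene rose or fell are on the log2 scale. In all 173 genes both marked libraries lay on one side of both unmarked libraries, which the choice of these genes partly fixes. Among all tested genes this held in 28.9% on the higher and 24.9% on the lower side.

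Of the called genes named for the size of their rise, the largest fold change was that of Klrg1, an inhibitory receptor of terminally differentiated lymphocytes and of effector Treg cells. It had 144 and 56.1 CPM in marked cells, against 3.11 and 0.902 CPM in unmarked cells. Its log2 fold change was 5.64 ± 0.65 (SE) (adjusted p = 0.00280), and 4.80 without marked GFP 3, 6.79 without unmarked GFP 3 and 5.01 without unmarked GFP 4. All 3 of these values leave marked cells far above unmarked cells, although the marked libraries themselves differed by more than 2-fold. Il4, the cytokine of type 2 helper cells, had 34.2 and 31.7 CPM in marked cells, against 1.56 and 0.792 CPM in unmarked cells (4.81 ± 0.41 (SE), adjusted p = 0.00108). The marked libraries were close together and the unmarked libraries were both under 2 CPM.

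Among the other strong gains, Gpr15, a receptor that guides T cells to the large intestine, had 199 and 148 CPM in marked cells, against 21.6 and 18.6 CPM in unmarked cells (3.11, adjusted p = 3.54e-04), although its exons overlap those of Cpox. Csf1, the growth factor of macrophages, had 138 and 108 CPM in marked cells, against 14.1 and 15.4 CPM in unmarked cells (3.06, adjusted p = 5.00e-04). In both genes the gap between the populations was several times the spread within either. Gzmb, the protease granzyme B, was the most abundant of the strong gains, with 860.2 and 347 CPM in marked cells, against 105 and 47.6 CPM in unmarked cells (2.98, adjusted p = 0.00924). Its spread was wide: the log2 fold change was 2.18 without marked GFP 3 and 3.66 without unmarked GFP 3, and the adjusted p was 0.0568 without unmarked GFP 4.

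The genes with the largest increases included 4 further receptor genes. Il9r, the receptor chain for interleukin-9, had 11.7 and 10.8 CPM in marked cells, against 1.36 and 2.02 CPM in unmarked cells (2.73, adjusted p = 0.00713). Il17rb, a chain of the interleukin-25 receptor whose exons overlap those of Actr8, had 31.3 and 24.3 CPM in marked cells, against 2.23 and 4.93 CPM in unmarked cells (2.96, adjusted p = 0.0169). Its adjusted p was 0.0519 without marked GFP 3 and 0.0588 without unmarked GFP 3, and its log2 fold change was 3.64 without unmarked GFP 4. Nmur1, the receptor for neuromedin U, had 24.4 and 7.87 CPM in marked cells, against 2.77 and 2.05 CPM in unmarked cells (2.74, adjusted p = 0.0373), a call that did not hold in most fits, with an adjusted p of 0.185 without marked GFP 3, 0.0947 without unmarked GFP 3, 0.189 without unmarked GFP 4, 0.0528 without marked Thy1.1 1, 0.0689 without unmarked Thy1.1 1 and 0.0659 without unmarked Thy1.1 2 and a log2 fold change of 1.70 without marked GFP 3 and 3.34 without marked GFP 4. Ryk, a Wnt receptor, had 17.7 and 10.2 CPM in marked cells, against 2.34 and 1.43 CPM in unmarked cells (2.89, adjusted p = 0.00695). Of these 4 receptors, Il9r and Ryk kept their calls in all 8 fits.

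The list of largest increases also held Nid2, a basement membrane protein, with a log2 fold change of 4.05 (adjusted p = 0.0171) that was 5.97 without unmarked GFP 3 and 3.25 without unmarked GFP 4. Rasl11a, a Ras-like GTPase, changed by 3.36 (adjusted p = 0.0239), with an adjusted p of 0.0844 without marked GFP 3, 0.0825 without unmarked GFP 3, 0.110 without unmarked GFP 4, 0.0532 without marked Thy1.1 1 and 0.0510 without marked Thy1.1 2. Hspa2, a heat shock protein, changed by 3.02 (adjusted p = 0.0230), with an adjusted p of 0.107 without marked GFP 3, 0.0659 without unmarked GFP 3 and 0.136 without unmarked GFP 4 and a log2 fold change of 2.00 without marked GFP 3 and 3.60 without marked GFP 4. Naip5, an intracellular sensor of bacterial flagellin, had 14.8 and 4.22 CPM in marked cells, against 1.21 and 1.41 CPM in unmarked cells (2.86, adjusted p = 0.0148), an adjusted p of 0.0612 without unmarked GFP 3 and 0.0903 without unmarked GFP 4 and a log2 fold change of 1.68 without marked GFP 3 and 3.50 without marked GFP 4. Epas1, a hypoxia-inducible factor, changed by 2.78 (adjusted p = 0.0193), with an adjusted p of 0.0633 without marked GFP 3 and 0.119 without unmarked GFP 4 and a log2 fold change of 2.18 without marked GFP 3. Ifitm2, an interferon-inducible membrane protein, changed by 2.59 (adjusted p = 0.0109), with an adjusted p of 0.0672 without unmarked GFP 4. Of these 6 genes, Nid2 kept its call in every fit and the other 5 did not.

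The abundant genes gave steadier differences. Icos, a costimulatory receptor of activated T cells, had 1407 and 1319.7 CPM in marked cells, against 636 and 420.4 CPM in unmarked cells (1.37, adjusted p = 0.00531). Ctla4, the inhibitory receptor through which Treg cells restrain antigen-presenting cells, had 1264 and 1072 CPM in marked cells, against 641 and 471 CPM in unmarked cells (1.07, adjusted p = 0.00520). Itgae, the integrin chain CD103 that binds epithelial E-cadherin, had 651 and 611 CPM in marked cells, against 233 and 233 CPM in unmarked cells (1.44, adjusted p = 2.86e-04). All 3 kept their calls with any 1 library left out, and Itgae was among the genes with the smallest adjusted p of the comparison. Capg, an actin-capping protein, rose by 1.17 (adjusted p = 0.00340) on the log2 scale, Malt1, a protease of antigen receptor signalling, by 1.15 (adjusted p = 0.00106), Ccr2, a chemokine receptor of inflamed tissue, by 1.40 (adjusted p = 0.00921), and the claudin-like Cldnd1 by 1.82 (adjusted p = 0.00150). Glrx, a glutaredoxin, rose by 1.45 (adjusted p = 0.0163), with an adjusted p of 0.0611 without marked GFP 3. Prr13, a proline-rich protein gene, rose as well, with 615 and 478 CPM in marked cells, against 310.2 and 201 CPM in unmarked cells (adjusted p = 0.0143), and had an adjusted p of 0.0568 without marked GFP 3. S100a10, a partner of annexin A2, rose by 1.03 (adjusted p = 0.0121), with an adjusted p of 0.0530 without unmarked GFP 4.

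**Figure D3:**
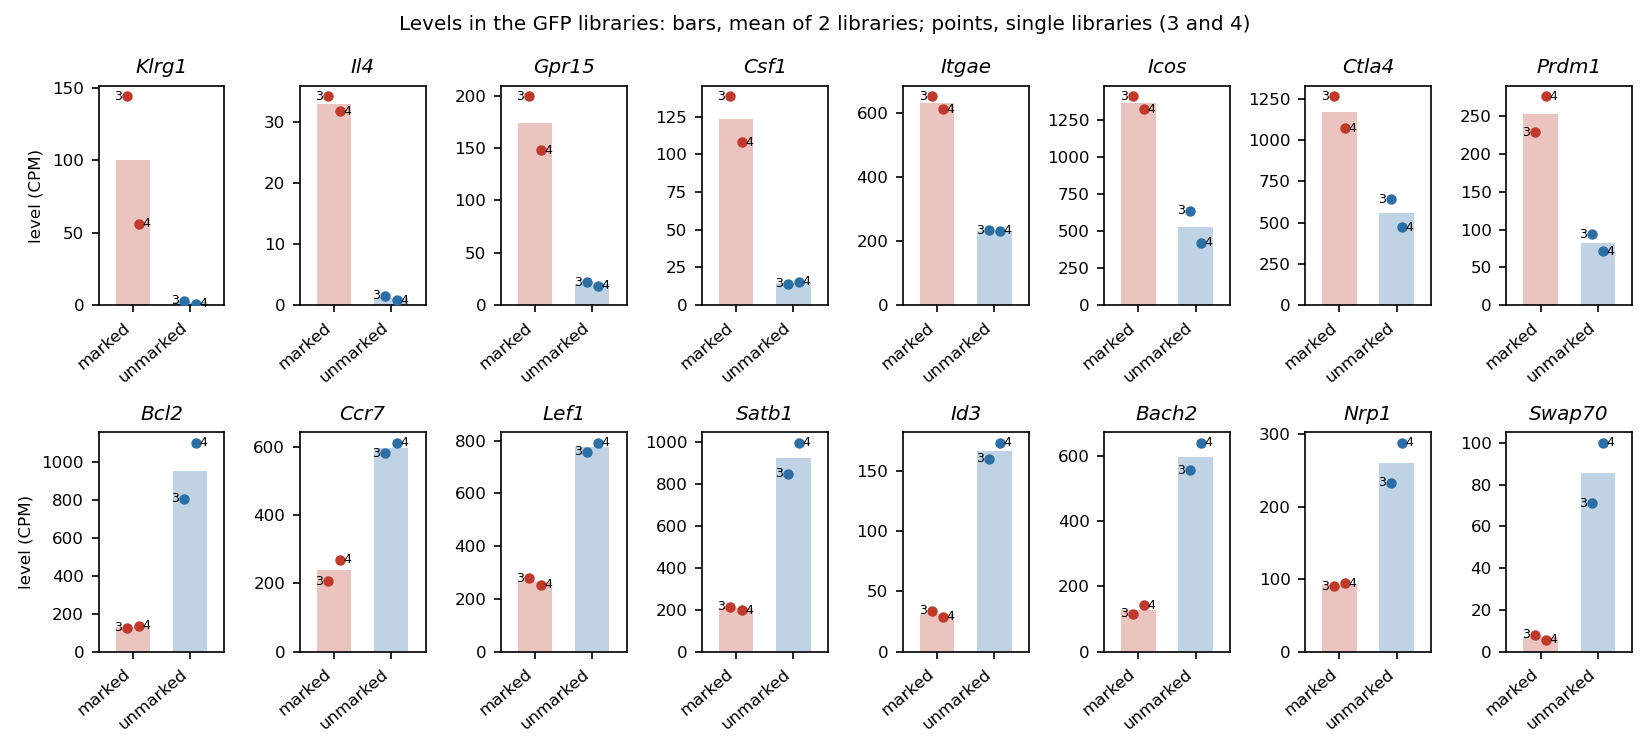
Levels of 16 genes in marked (red, left) and unmarked (blue, right) GFP cells on linear axes of CPM from 0, with bars for the mean of 2 libraries and points numbered by library. In each of the 16 genes shown both marked libraries lie on one side of both unmarked libraries, with Klrg1 the most uneven between marked libraries. The choice of these genes partly fixes that separation.

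The abundant genes that fell included genes of resting lymphocytes. Bcl2, a survival factor of resting T cells, had 127 and 137 CPM in marked cells, against 805 and 1100.5 CPM in unmarked cells (-2.85 ± 0.18 (SE), adjusted p = 3.54e-04). Satb1, a chromatin organizer of T cell development, had 214 and 197 CPM in marked cells, against 847 and 994 CPM in unmarked cells (-2.16, adjusted p = 2.86e-04). Both genes were at 4-fold or more below unmarked cells and kept their calls in all 8 fits. S1pr1, the receptor for egress from lymph nodes, had 379.8 and 325 CPM in marked cells, against 673 and 806 CPM in unmarked cells (-1.07, adjusted p = 0.00237). Lef1, a transcription factor of naive T cells, had 277 and 253 CPM in marked cells, against 759 and 791 CPM in unmarked cells (-1.55, adjusted p = 2.86e-04). Further log2 fold changes were -1.23 (adjusted p = 4.12e-04) for Fam65b, an inhibitor of RhoA, -1.19 (adjusted p = 0.00155) for the condensin subunit Smc4, -1.06 (adjusted p = 0.00161) for the Ras inhibitor Rasa3 and -1.03 (adjusted p = 0.00355) for the nuclear receptor corepressor Nrip1. Ms4a4b, a membrane protein of naive T cells, fell by 1.06 (adjusted p = 0.0106), with an adjusted p of 0.0672 without unmarked GFP 4.

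The largest decreases were in genes that were nearly absent from marked cells. Selp, which encodes P-selectin, had no count in either marked library and 0 to 21.1 CPM over the 4 libraries, with 1414 counts in unmarked cells. Measured against 3 counts over both marked libraries, Selp was at least 427-fold lower in marked cells (adjusted p = 0.00141), and its exons overlap those of Gm16548. The fitted fold change, which depends on the prior count, was -11.77 without unmarked GFP 4. Acvr1c, an activin-type receptor that overlaps Gm13544, had 0.0677 and 0.0537 CPM in marked cells, against 9.11 and 20.8 CPM in unmarked cells (-7.87, adjusted p = 0.00243, -7.16 without unmarked GFP 4). Lad1, an anchoring filament protein, had 1.58 and 0 CPM in marked cells, against 71.8 and 79.2 CPM in unmarked cells (-6.52, adjusted p = 0.00624, -14.71 without marked GFP 3 and -5.58 without marked GFP 4). In all 3 genes the unmarked libraries were both far above both marked libraries.

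Others of this kind were the RhoGAP gene Arhgap20 with 1.31 and 0.0806 CPM in marked cells, against 56.4 and 60.9 CPM in unmarked cells (-6.35, adjusted p = 0.00456, -9.46 without marked GFP 3 and -5.48 without marked GFP 4) and Arhgap20os (-5.93, adjusted p = 0.00718, -8.78 without marked GFP 3 and -5.08 without marked GFP 4), which overlap each other and cannot be told apart without strand. The receptor phosphatase Ptprf had 0.180 and 0.188 CPM in marked cells, against 11.2 and 9.37 CPM in unmarked cells (-5.78, adjusted p = 0.00575). The tight junction gene Cldn10 had 0.316 and 0.242 CPM in marked cells, against 13.7 and 12.5 CPM in unmarked cells (-5.53, adjusted p = 0.00237). These genes kept their calls in every fit. So did Cecr6 with a log2 fold change of -4.36 (adjusted p = 2.94e-04), the palmitoyltransferase gene Zdhhc14 (-5.92, adjusted p = 0.00717, -5.07 without marked GFP 3 and -7.95 without marked GFP 4) and the axonemal gene Drc1 (-5.31, adjusted p = 0.00240, -6.42 without marked GFP 3 and -4.72 without marked GFP 4).

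The remaining 4 of the largest decreases lost their calls in at least 1 fit. The phospholipase gene Pla2g4f fell by 5.86 (adjusted p = 0.0220), with an adjusted p of 0.104 without unmarked GFP 4 and a log2 fold change of -4.89 without marked GFP 3, -9.50 without marked GFP 4 and -4.98 without unmarked GFP 4. The zinc finger gene Zfp608 fell by 4.48 (adjusted p = 0.0190), with an adjusted p of 0.0767 without unmarked GFP 4 and a log2 fold change of -3.58 without marked GFP 3 and -7.04 without marked GFP 4. The glutathione transferase gene Gsta4 fell by 4.90 (adjusted p = 0.0306), with an adjusted p of 0.0701 without unmarked GFP 3, 0.0990 without unmarked GFP 4, 0.0624 without marked Thy1.1 1, 0.0622 without marked Thy1.1 2, 0.0614 without unmarked Thy1.1 1 and 0.0618 without unmarked Thy1.1 2 and a log2 fold change of -13.83 without marked GFP 3 and -3.93 without marked GFP 4. Ccdc148 fell by 4.25 (adjusted p = 0.0335), with an adjusted p of 0.0734 without unmarked GFP 3, 0.112 without unmarked GFP 4, 0.0628 without marked Thy1.1 1, 0.0610 without marked Thy1.1 2, 0.0624 without unmarked Thy1.1 1 and 0.0645 without unmarked Thy1.1 2 and a log2 fold change of -7.43 without marked GFP 3 and -3.35 without marked GFP 4. Gsta4 had 2.68 and 0 CPM in marked cells, against 45.3 and 36.8 CPM in unmarked cells, and Ccdc148 had 0.948 and 0.0537 CPM in marked cells, against 10.2 and 9.22 CPM in unmarked cells, so marked GFP 3 held most of what marked cells had of both.

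Naive and quiescence genes moved in 1 direction. Of 30 listed genes, all tested, 18 of 30 fell and 0 rose, with a median log2 fold change of -0.80 against 0.03 over all genes. Between 15 and 18 members fell in the fits without 1 library. Bach2, a repressor that keeps T cells from effector fates, had 116 and 142 CPM in marked cells, against 556 and 641 CPM in unmarked cells (-2.22, adjusted p = 2.86e-04), though its exons overlap those of Bach2os. Id3, an inhibitor of E proteins, had 33.7 and 28.7 CPM in marked cells, against 159.9 and 173 CPM in unmarked cells (-2.41, adjusted p = 2.86e-04). Ccr7, the chemokine receptor for lymph node entry, had 207 and 269.7 CPM in marked cells, against 581 and 611 CPM in unmarked cells (-1.32, adjusted p = 0.00155). Tcf7, which encodes the T cell factor TCF-1, fell by 0.82 (adjusted p = 0.00694), and Klf2, which drives S1pr1 in naive T cells, fell by 0.94 (adjusted p = 0.00278). All 5 kept their calls in every fit.

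Promoter sequences are shown for 1 gene that rose and 2 that fell, because Klf2, Klf3, Tcf7 and Lef1, whose proteins bind CACCC boxes (Klf factors) or CTTTGA elements (TCF and LEF factors), themselves fell. Each is the 250 bases before the first RefSeq start listed for the gene, in GRCm38.p6, read 5′ to 3′ on the strand of the gene. Capitals mark each match to CACCC or its reverse complement GGGTG, and none of the 3 holds CTTTGA or its reverse complement TCAAAG. Il4 (chr11:53617339-53617588, minus strand) holds 1 match, Lef1 (chr3:131110047-131110296, plus strand) 3 and Satb1 (chr17:51833291-51833540, minus strand) 2.
Il4: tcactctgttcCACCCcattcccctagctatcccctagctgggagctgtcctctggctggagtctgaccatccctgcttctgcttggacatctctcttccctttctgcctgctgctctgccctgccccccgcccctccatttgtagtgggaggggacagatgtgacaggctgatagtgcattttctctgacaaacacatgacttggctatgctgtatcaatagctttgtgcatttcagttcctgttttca
Lef1: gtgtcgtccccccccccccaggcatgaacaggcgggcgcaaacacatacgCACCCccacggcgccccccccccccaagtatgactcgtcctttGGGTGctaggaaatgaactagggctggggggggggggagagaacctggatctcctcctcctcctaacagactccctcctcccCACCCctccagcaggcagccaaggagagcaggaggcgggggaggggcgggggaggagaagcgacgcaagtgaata
Satb1: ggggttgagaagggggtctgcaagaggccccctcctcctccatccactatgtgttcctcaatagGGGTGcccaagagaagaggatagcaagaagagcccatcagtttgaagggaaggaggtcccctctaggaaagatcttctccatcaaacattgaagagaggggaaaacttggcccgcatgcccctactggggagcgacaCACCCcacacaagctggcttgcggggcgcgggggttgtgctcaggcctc
CACCC on either strand was in 61.2% of 672 promoters of genes called higher, in 62.4% of 683 promoters of genes called lower and in 56.7% of 10766 promoters of tested genes. CTTTGA on either strand was in 12.6% of the promoters of genes called higher, in 10.4% of those of genes called lower and in 10.9% of those of tested genes. A match is a description of letters, and the differences between these shares were not tested. For CACCC both groups of called genes lay above the share of all tested genes. No promoter is given for Klrg1 or Ccr7.

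Several genes linked with thymic Treg origin were lower in marked cells, 2 of them called with the 4 GFP libraries alone. Of 10 such genes tested, 5 of 10 fell and 0 rose, with a median log2 fold change of -0.84. The number that fell was 3 without unmarked GFP 4. Swap70, a signalling adaptor of activated lymphocytes, had 7.99 and 5.64 CPM in marked cells, against 71.1 and 100.1 CPM in unmarked cells (-3.65, adjusted p = 3.80e-04). Nrp1, the semaphorin receptor neuropilin-1, had 90.5 and 94.4 CPM in marked cells, against 233 and 288 CPM in unmarked cells (-1.50, adjusted p = 0.00245, exons overlapping Mir1903). The zinc finger gene Plagl1 had 0.0451 and 0.403 CPM in marked cells, against 5.73 and 7.61 CPM in unmarked cells (-4.92, adjusted p = 0.00881, -4.05 without marked GFP 3 and -7.12 without marked GFP 4). Ikzf2, which encodes Helios, had 183 and 128 CPM in marked cells, against 289 and 470.1 CPM in unmarked cells (-1.29, adjusted p = 0.0156). Marked cells were below unmarked cells in all 4 genes, but the Ikzf2 call was lost without 1 library, at an adjusted p of 0.0707 without unmarked GFP 4.

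Of 13 tested genes of thymocytes and recent thymic emigrants, 4 fell and 1 rose, with a median log2 fold change of -1.32. Without marked GFP 4, 6 fell and 2 rose. Sox4, a transcription factor of developing T cells, had 5.64 and 4.38 CPM in marked cells, against 38.05 and 39.4 CPM in unmarked cells (-2.95, adjusted p = 0.00219). Ldhb, a lactate dehydrogenase subunit, had 13.5 and 10.4 CPM in marked cells, against 35.1 and 37.6 CPM in unmarked cells (-1.61, adjusted p = 0.00237), and Cd1d1, which presents lipids, had 28.9 and 25.8 CPM in marked cells, against 67.3 and 68.9 CPM in unmarked cells (-1.32, adjusted p = 0.00159). Ly6c1, which has a near-identical neighbour, fell by 2.12 (adjusted p = 0.00730). The gene that rose was Nt5e, which encodes the ectoenzyme CD73 (0.72, adjusted p = 0.00263).

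The genes that define Treg cells in general did not move together. Of 19 tested core genes, 4 rose and 6 fell, with a median log2 fold change of -0.10. The number that fell moved with the libraries and was 0 without unmarked GFP 4, and 3 without marked GFP 3, marked Thy1.1 1 or marked Thy1.1 2. Beside Ctla4 and Capg above, the small GTPase gene Arl5a rose by 1.14 (adjusted p = 0.00295). Ikzf4, which encodes Eos, a partner of Foxp3, had 12.4 and 43.4 CPM in marked cells, against 108 and 158 CPM in unmarked cells (-2.26, adjusted p = 0.0249), with an adjusted p of 0.121 without unmarked GFP 4, 0.0512 without marked Thy1.1 1 and 0.0510 without marked Thy1.1 2 and a log2 fold change of -1.62 without marked GFP 3 and -3.42 without marked GFP 4. Il2rb, a chain of the interleukin-2 receptor, fell by 0.64 (adjusted p = 0.0200), with an adjusted p of 0.0872 without marked GFP 3 and 0.0901 without unmarked GFP 4.

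Many genes known from Treg cells of tissue and intestine were higher in marked cells. With the 4 GFP libraries alone, 5 intestinal members were called higher and 0 lower, and 3 tissue members higher and 3 lower. Of 20 intestinal Treg genes tested, 13 of 20 rose and 0 fell, with a median log2 fold change of 1.36. Between 9 and 14 rose in the fits without 1 library. Prdm1, which encodes the effector factor Blimp-1, had 229 and 277 CPM in marked cells, against 94.1 and 71.2 CPM in unmarked cells (1.61, adjusted p = 0.00237), and Ahr, the receptor for dietary and microbial aryl compounds, had 456 and 474 CPM in marked cells, against 210.3 and 153 CPM in unmarked cells (1.36, adjusted p = 0.00280). Maf, a factor of intestinal Treg cells and of Il10 expression, had 313 and 269 CPM in marked cells, against 137 and 74.9 CPM in unmarked cells (1.46, adjusted p = 0.0113). These 3 factors held in every fit. Il10, the suppressor cytokine, had 202 and 113 CPM in marked cells, against 56.8 and 33.8 CPM in unmarked cells (1.80, adjusted p = 0.0311), with both marked libraries above both unmarked libraries and an adjusted p of 0.123 without marked GFP 3, 0.172 without unmarked GFP 4, 0.0608 without marked Thy1.1 1 and 0.0576 without marked Thy1.1 2.

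Of 21 tissue Treg genes tested, 12 rose and 4 fell, with a median log2 fold change of 1.22. The number that rose was 6 without unmarked GFP 4. Gata3, the type 2 factor that tissue Treg cells share, had 416 and 229.7 CPM in marked cells, against 163 and 151 CPM in unmarked cells (1.04, adjusted p = 0.0281, exons overlapping 9230102O04Rik). The call had an adjusted p of 0.0750 without unmarked GFP 3, 0.147 without unmarked GFP 4, 0.0615 without marked Thy1.1 1, 0.0565 without marked Thy1.1 2, 0.0598 without unmarked Thy1.1 1 and 0.0561 without unmarked Thy1.1 2. Il1rl1, the interleukin-33 receptor ST2, had 26.4 and 30.8 CPM in marked cells, against 9.39 and 5.06 CPM in unmarked cells (1.99, adjusted p = 0.0121). This call had an adjusted p of 0.0621 without unmarked GFP 4. Gata1, an erythroid factor also on the list, moved the other way, with 3.23 and 2.34 CPM in marked cells, against 30.1 and 48.4 CPM in unmarked cells (-3.81, adjusted p = 7.67e-04), while the erythroid marker Hba-a2 was highest in marked GFP 3. Klrg1, Itgae, Ccr2 and Ccr8 of this list held in every fit, while the calls of Gata3, Il1rl1 and Il10 did not.

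Suppressor effector genes rose in 12 of 21 tested members and fell in 2, with a median log2 fold change of 1.07. The number that rose was 6 without unmarked GFP 4, and the number that fell was 0 without marked GFP 3 or marked Thy1.1 2, and 1 without unmarked GFP 4, marked Thy1.1 1, unmarked Thy1.1 1 or unmarked Thy1.1 2. Fgl2, a secreted suppressor of dendritic cells, had 219 and 231 CPM in marked cells, against 86.5 and 59.99 CPM in unmarked cells (1.62, adjusted p = 0.00237). Entpd1, which encodes the ectoenzyme CD39 that acts before CD73, had 121 and 99.5 CPM in marked cells, against 62.1 and 55.8 CPM in unmarked cells (0.90, adjusted p = 0.0107). That call had an adjusted p of 0.0728 without unmarked GFP 4. Ebi3, a subunit of interleukin-35 whose exons overlap Gm16712, had 9.88 and 10.1 CPM in marked cells, against 3.53 and 3.26 CPM in unmarked cells (1.56, adjusted p = 0.00729). The call had an adjusted p of 0.0517 without unmarked GFP 4. Of the members named, Fgl2, Nt5e, Ctla4 and Pdcd1 held in every fit.

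**Figure D4:**
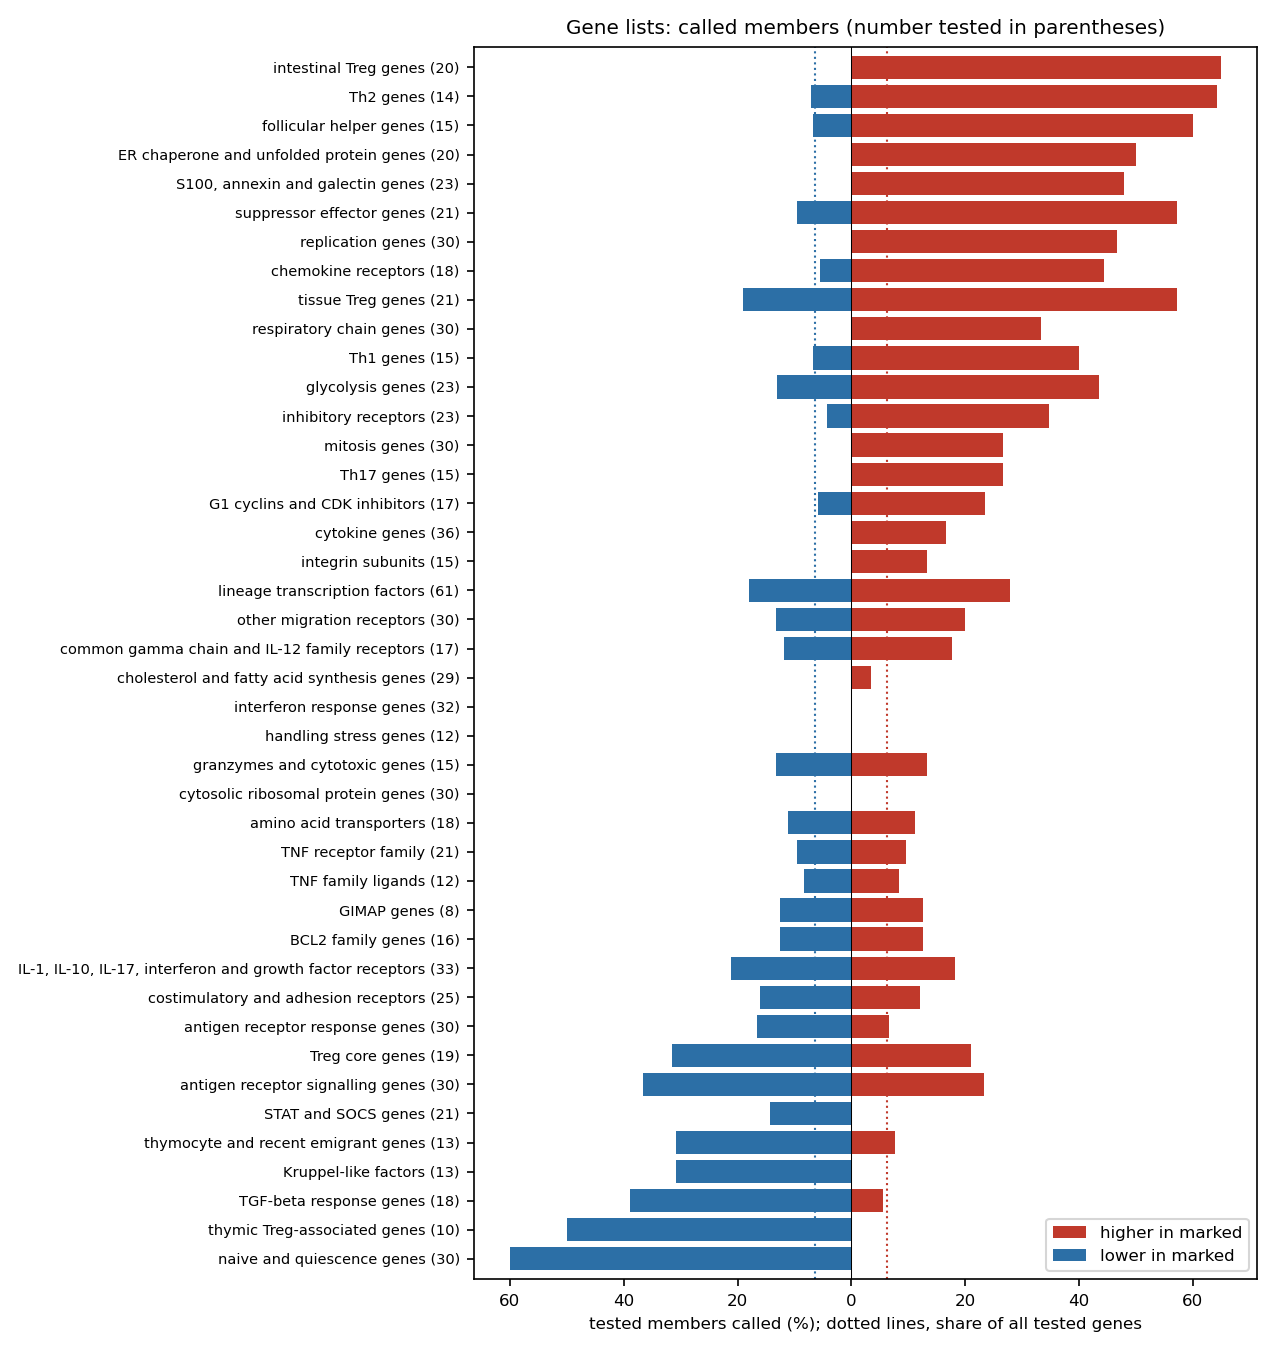
Share of tested members called higher (red, right) and lower (blue, left) in marked GFP cells for each gene list (rows, with the number tested), with dotted lines at the shares over all tested genes, 6.24% and 6.40%. Intestinal Treg, type 2 helper and follicular helper lists reach furthest to the right, and naive and thymic Treg-associated lists furthest to the left. The lists were chosen with earlier results of these data known, which partly fixes these shares.

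Some genes of several helper T cell lineages were called higher in marked cells. With the 4 GFP libraries alone, the members called higher were 2 of type 2, 7 of follicular, 1 of type 1 and 2 of type 17 helper genes. Type 2 helper (Th2) genes rose in 9 of 14 tested members and fell in 1, with 5 higher without unmarked GFP 4. Ccr8, a chemokine receptor of Th2 and tissue Treg cells, had 67.1 and 92.0 CPM in marked cells, against 32.7 and 35.4 CPM in unmarked cells (1.22, adjusted p = 0.00575). Follicular helper genes rose in 9 of 15 members and fell in 1, with 6 to 8 higher in the fits without 1 library. Pdcd1, the inhibitory receptor PD-1, had 189 and 167 CPM in marked cells, against 94.7 and 71.8 CPM in unmarked cells (1.09, adjusted p = 0.00519). The membrane protein gene Gpm6b had 74.0 and 52.5 CPM in marked cells, against 12.0 and 15.8 CPM in unmarked cells (2.19, adjusted p = 0.00237), and Angptl2, an angiopoietin-like factor, 421 and 478 CPM in marked cells, against 164 and 124 CPM in unmarked cells (1.64, adjusted p = 0.00263). The 4 genes named here held in every fit.

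Type 1 helper (Th1) genes rose in 6 of 15 tested members and fell in 1, and the number higher was 1 without unmarked GFP 4 or unmarked Thy1.1 1, 2 without marked Thy1.1 1 or unmarked Thy1.1 2, and 3 without marked GFP 4 or marked Thy1.1 2. Tbx21, the gene of the Th1 factor T-bet, had 18.3 and 19.9 CPM in marked cells, against 3.94 and 3.67 CPM in unmarked cells (2.32, adjusted p = 0.00629). This call had an adjusted p of 0.0516 without unmarked GFP 4. Cxcr3, a T-bet target receptor, had 148 and 141 CPM in marked cells, against 57.0 and 19.98 CPM in unmarked cells (1.91, adjusted p = 0.0276), with an adjusted p of 0.0768 without marked GFP 3, 0.0506 without marked GFP 4, 0.0536 without marked Thy1.1 1, 0.0509 without marked Thy1.1 2, 0.0549 without unmarked Thy1.1 1 and 0.0509 without unmarked Thy1.1 2 and a log2 fold change of 2.86 without unmarked GFP 3. Runx3 rose by 0.90 (adjusted p = 0.0230), with an adjusted p of 0.0645 without marked GFP 4, 0.107 without unmarked GFP 4, 0.0540 without marked Thy1.1 1 and 0.0558 without unmarked Thy1.1 1. Eomes, the related T-box factor, was the member that fell, with 0 and 0.0269 CPM in marked cells, against 2.38 and 3.50 CPM in unmarked cells (adjusted p = 0.0127). It had 1 count in marked cells against 269 in unmarked cells, a 244-fold ratio with a 95% counting interval of 43.4 to 9664. Its adjusted p was 0.0584 without unmarked GFP 4, and its fitted log2 fold change was -6.64 without marked GFP 3 and -10.06 without marked GFP 4. T-bet and Eomes thus lay on opposite sides, both at low levels.

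Type 17 helper (Th17) genes rose in 4 of 15 tested members and fell in 0, and the number higher was 2 without marked GFP 3 or unmarked GFP 4. Rora, a nuclear receptor of Th17 and tissue Treg cells, had 249 and 251 CPM in marked cells, against 135 and 92.8 CPM in unmarked cells (1.13, adjusted p = 0.00956). Batf, an AP-1 family factor of effector T cells, had 262 and 210.4 CPM in marked cells, against 139 and 86.9 CPM in unmarked cells (1.06, adjusted p = 0.0190). That call had an adjusted p of 0.0730 without marked GFP 3 and 0.0581 without unmarked GFP 4. Tmem176b, a cation channel gene whose exons overlap Tmem176a, rose by 1.26 (adjusted p = 0.0405), a call lost in 7 of 8 fits, at 0.146 without marked GFP 3, 0.0996 without unmarked GFP 3, 0.176 without unmarked GFP 4, 0.0790 without marked Thy1.1 1, 0.0687 without marked Thy1.1 2, 0.0598 without unmarked Thy1.1 1 and 0.0546 without unmarked Thy1.1 2. Of these members, Rora and Ahr held in every fit.

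Over all lineage transcription factors, 17 of 61 tested rose and 11 fell, with a median log2 fold change of 0.18. The number higher was 7 without unmarked GFP 4, and 11 without marked GFP 3 or marked Thy1.1 1, and the number lower was 4 without unmarked GFP 4. Cebpb, a factor of myeloid cells and of stress responses, had 41.9 and 42.1 CPM in marked cells, against 10.5 and 10.9 CPM in unmarked cells (1.97, adjusted p = 0.00243), with exons that overlap Tmem189. Kruppel-like factors fell in 4 of 13 tested members and rose in 0, with 2 lower without marked GFP 3, marked GFP 4, unmarked GFP 4, marked Thy1.1 1, marked Thy1.1 2 or unmarked Thy1.1 2. Klf3 fell by 0.86 (adjusted p = 0.00733), and with Klf2 it held in every fit. Sp4 changed by -0.80 (adjusted p = 0.0275), with an adjusted p of 0.0731 without marked GFP 3, 0.0692 without marked GFP 4, 0.130 without unmarked GFP 4, 0.0527 without marked Thy1.1 1, 0.0591 without marked Thy1.1 2 and 0.0552 without unmarked Thy1.1 2, and Klf7 by -0.73 (adjusted p = 0.0293), with an adjusted p of 0.0562 without marked GFP 3, 0.0766 without marked GFP 4, 0.141 without unmarked GFP 4, 0.0535 without marked Thy1.1 1, 0.0628 without marked Thy1.1 2 and 0.0506 without unmarked Thy1.1 2.

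Chemokine receptors rose in 8 of 18 tested members and fell in 1, Ccr7, with a median log2 fold change of 1.20. The number higher was 4 without unmarked GFP 4 and 5 without marked GFP 3. Ccr2 and Ccr8 rose as above, and Ccr3, the eotaxin receptor, had 25.6 and 40.6 CPM in marked cells, against 6.32 and 5.92 CPM in unmarked cells (2.44, adjusted p = 0.00606). The call had an adjusted p of 0.0526 without unmarked GFP 4. Among other migration receptors 6 of 30 rose and 4 fell, with 3 higher without unmarked GFP 4, marked Thy1.1 1 or marked Thy1.1 2. Sema4a, a semaphorin gene whose exons overlap Mir7011, had 13.96 and 6.23 CPM in marked cells, against 95.4 and 115 CPM in unmarked cells (-3.38, adjusted p = 0.00243, -4.08 without marked GFP 3). Ccr9, a receptor for the small intestine, had 536 and 283 CPM in marked and 325 and 179 CPM in unmarked cells and did not pass the test (adjusted p = 0.226), with the populations overlapping.

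Integrins changed little beside Itgae, with 13.3% of tested subunits called, against 12.6% of all tested genes. Of 15 tested subunits 2 rose and 0 fell, and the second, Itgav, rose by 0.59 (adjusted p = 0.0410), a call lost in 7 of 8 fits, at 0.156 without marked GFP 3, 0.133 without unmarked GFP 3, 0.117 without unmarked GFP 4, 0.0725 without marked Thy1.1 1, 0.0608 without marked Thy1.1 2, 0.0887 without unmarked Thy1.1 1 and 0.0765 without unmarked Thy1.1 2. The chains of the gut homing integrin did not pass the test: Itga4 had 332 and 323 CPM in marked and 498 and 385 CPM in unmarked cells (adjusted p = 0.0504), and Itgb7 had 1493 and 1465 CPM in marked and 1261 and 1312 CPM in unmarked cells (adjusted p = 0.0734).

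Inhibitory receptors rose in 8 of 23 tested members and fell in 1, with 5 higher without unmarked GFP 4. Klrg1, Pdcd1 and Ctla4 were among those that rose, and Cd96, a nectin receptor shared with natural killer cells, fell, with 108 and 88.0 CPM in marked cells, against 215 and 287 CPM in unmarked cells (-1.36, adjusted p = 0.00280). Costimulatory and adhesion receptors went both ways, 3 of 25 higher and 4 lower, with 2 lower without marked GFP 3. Cd81, a tetraspanin whose exons overlap R74862, had 24.8 and 24.1 CPM in marked cells, against 71.9 and 73.5 CPM in unmarked cells (-1.57, adjusted p = 5.00e-04), and Cd82, another tetraspanin, rose by 0.90 (adjusted p = 0.00456).

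Of 21 TNF receptor family genes, 2 rose and 2 fell, with 1 higher without unmarked GFP 4 or marked Thy1.1 1, and with 1 lower without marked GFP 3, unmarked GFP 4, marked Thy1.1 1, marked Thy1.1 2, unmarked Thy1.1 1 or unmarked Thy1.1 2. Tnfrsf1b, the TNF receptor 2 that supports Treg cells, had 1169 and 1235 CPM in marked cells, against 625 and 603 CPM in unmarked cells (0.97, adjusted p = 8.26e-04), and Fas, the death receptor, had 35.6 and 37.3 CPM in marked cells, against 82.4 and 76.5 CPM in unmarked cells (-1.12, adjusted p = 0.00245). These 2 moved in opposite directions and held in every fit. In the whole family 19.0% of genes were called, against 12.6% of all tested genes. Tnfrsf13b, the receptor TACI, rose by 1.01 (adjusted p = 0.0193), with an adjusted p of 0.112 without unmarked GFP 4 and 0.0520 without marked Thy1.1 1. Tnfrsf25, the death receptor 3 that costimulates Treg cells, fell by 0.64 (adjusted p = 0.0292), with an adjusted p of 0.108 without marked GFP 3, 0.148 without unmarked GFP 4, 0.0539 without marked Thy1.1 1, 0.0606 without marked Thy1.1 2, 0.0530 without unmarked Thy1.1 1 and 0.0582 without unmarked Thy1.1 2. Of 12 TNF family ligands, 1 rose and 1 fell (16.7% called, against 12.6% of all tested genes). Cd40lg, the CD40 ligand, rose by 0.87 (adjusted p = 0.0145), with an adjusted p of 0.0850 without unmarked GFP 4, and lymphotoxin alpha (Lta) fell by 1.27 (adjusted p = 0.00996), with an adjusted p of 0.0640 without unmarked GFP 4.

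Cytokine genes rose in 6 of 36 tested members and fell in 0, with 3 higher without unmarked GFP 4. Csf1 and Il4 held in every fit, and Bmp7, a growth factor of the TGF-beta family, changed by 1.69 (adjusted p = 0.0234), with an adjusted p of 0.0535 without marked GFP 3, 0.0522 without marked GFP 4, 0.0549 without unmarked GFP 4 and 0.0527 without unmarked Thy1.1 1 and a log2 fold change of 2.41 without unmarked GFP 3. Receptors of the common gamma chain and interleukin-12 families split 3 higher and 2 lower of 17, with 1 higher without marked GFP 3 or unmarked GFP 4, and with 1 lower without marked GFP 3 or unmarked GFP 4, and 5 without marked GFP 4. Il21r, the interleukin-21 receptor, fell by 0.73 (adjusted p = 0.00446), while Crlf2, the receptor for the epithelial cytokine TSLP, rose by 1.06 (adjusted p = 0.0207), with an adjusted p of 0.0717 without marked GFP 3 and 0.0982 without unmarked GFP 4. Il21r and Il9r held in every fit and moved in opposite directions. In the mixed list of interleukin-1, interleukin-10, interleukin-17, interferon and growth factor genes, 6 of 33 rose and 7 fell. The number higher was 2 without unmarked GFP 4 and 3 without unmarked Thy1.1 1, and the number lower was 2 without unmarked GFP 4, 3 without marked GFP 3 and 11 without marked GFP 4. Ifngr2, an interferon-gamma receptor chain, had 28.6 and 22.6 CPM in marked cells, against 79.0 and 93.3 CPM in unmarked cells (-1.75, adjusted p = 0.00203). Ifnar1, a type I interferon receptor chain, fell by 1.05 (adjusted p = 0.00446), and Il17ra fell by 0.84 (adjusted p = 0.0109), with an adjusted p of 0.0660 without unmarked GFP 4 for Il17ra. No interferon response gene of 32 tested passed edgeR's test, with 1 at an unadjusted p under 0.05 and 1 call by DESeq2. Their summed level was 3868 and 6787 CPM in marked and 3710 and 6834 CPM in unmarked GFP cells, and 4368 and 7039 CPM in marked and 4154 and 6899 CPM in unmarked Thy1.1 cells, so the even-numbered library was the higher one in all 4 populations. With the odd or even column number as a replicate block, 1 member was called higher and 6 lower.

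Granule and cytotoxic genes beside Gzmb went both ways, 2 of 15 higher and 2 lower, with 1 higher without unmarked GFP 4 and 0 lower without unmarked GFP 4. Srgn, the granule proteoglycan serglycin, had 1189 and 1015 CPM in marked cells, against 651 and 471 CPM in unmarked cells (0.97, adjusted p = 0.00746) and held in every fit. Ctsw, a cathepsin of cytotoxic cells whose exons overlap Fibp, fell by 1.20 (adjusted p = 0.0127), with an adjusted p of 0.0723 without unmarked GFP 4. Lamp1, a lysosomal membrane protein overlapping Grtp1, fell by 0.53 (adjusted p = 0.0150), with an adjusted p of 0.0544 without unmarked GFP 4. S100, annexin and galectin genes rose in 11 of 23 tested members and fell in 0, but this count rested on single libraries, with 0 higher without unmarked GFP 4, 1 without marked GFP 3, 3 without marked Thy1.1 1 or marked Thy1.1 2, 4 without unmarked Thy1.1 1 or unmarked Thy1.1 2, and 7 without unmarked GFP 3. Lgals1, which encodes galectin-1, had 456 and 316 CPM in marked cells, against 183 and 107 CPM in unmarked cells (1.42, adjusted p = 0.0138). This call had an adjusted p of 0.0535 without marked GFP 3 and 0.0531 without unmarked GFP 4. S100a11 had 249.8 and 169 CPM in marked cells, against 94.2 and 45.6 CPM in unmarked cells (1.58, adjusted p = 0.0200), with an adjusted p of 0.0762 without marked GFP 3 and 0.0570 without unmarked GFP 4 and a log2 fold change of 2.20 without unmarked GFP 3. In both genes marked GFP 3 was the highest of the 4 libraries and unmarked GFP 4 the lowest.

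Genes of antigen receptor signalling changed in both directions. Of 30 tested, 7 rose and 11 fell, with 4 higher without marked GFP 3, unmarked GFP 4, marked Thy1.1 1, marked Thy1.1 2, unmarked Thy1.1 1 or unmarked Thy1.1 2 and 5 lower without unmarked GFP 4, 6 without marked Thy1.1 2 or unmarked Thy1.1 2, and 7 without marked GFP 3 or unmarked Thy1.1 1. Zap70, the kinase of the receptor complex, rose by 0.69 (adjusted p = 0.00713), and Ptpn22, a phosphatase that restrains it, by 0.72 (adjusted p = 0.00702). Of 30 genes that respond to the receptor, 2 rose and 5 fell, with 1 higher without unmarked GFP 4 and 1 lower without unmarked GFP 4, 2 without marked GFP 3 and 3 without unmarked GFP 3. Nfatc1, a calcium-dependent transcription factor, rose by 0.89 (adjusted p = 0.00263), and Rel, a NF-kappaB subunit of thymic Treg development, had 15.2 and 13.9 CPM in marked cells, against 52.1 and 65.2 CPM in unmarked cells (-2.01, adjusted p = 0.00280). Junb, an AP-1 subunit whose exons overlap Prdx2, rose by 0.73 (adjusted p = 0.00702), with an adjusted p of 0.0517 without unmarked GFP 4, and Myc fell by 0.92 (adjusted p = 0.0152), with an adjusted p of 0.0612 without marked GFP 3 and 0.0881 without unmarked GFP 4.

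Genes of TGF-beta signalling, a pathway that induces Foxp3 and Itgae, fell in 7 of 18 tested members and rose in 1, Itgae, with a median log2 fold change of -0.44. The number that fell was 0 without unmarked GFP 4, 1 without marked Thy1.1 2, and 2 without marked GFP 3, marked Thy1.1 1, unmarked Thy1.1 1 or unmarked Thy1.1 2. Tgfbr2, a receptor chain, had 218 and 250.1 CPM in marked cells, against 366 and 374 CPM in unmarked cells (-0.66, adjusted p = 0.0151). That call had an adjusted p of 0.0616 without marked GFP 3 and 0.0770 without unmarked GFP 4. Tgfbr3, the coreceptor betaglycan, changed by -1.49 (adjusted p = 0.0303), with an adjusted p of 0.101 without marked GFP 3, 0.160 without unmarked GFP 4, 0.0574 without marked Thy1.1 1, 0.0604 without marked Thy1.1 2, 0.0568 without unmarked Thy1.1 1 and 0.0587 without unmarked Thy1.1 2. Ltbp4, a latent TGF-beta binding protein, changed by -3.88 (adjusted p = 0.0293), with an adjusted p of 0.0713 without marked GFP 3, 0.0825 without marked GFP 4, 0.0687 without unmarked GFP 3, 0.0761 without unmarked GFP 4, 0.0549 without marked Thy1.1 1 and 0.0506 without marked Thy1.1 2 and a log2 fold change of -4.58 without marked GFP 3. The calls lower in this list thus depended on single libraries, unlike that of Itgae. Among STAT and SOCS genes 14.3% were called, near the 12.6% of all tested genes. STAT and SOCS genes fell in 3 of 21 and rose in 0, with 0 lower without unmarked GFP 4 and 1 without marked GFP 3. Jak1, a kinase of cytokine receptors that overlaps Raver2, fell by 0.61 (adjusted p = 0.0133), with an adjusted p of 0.0785 without unmarked GFP 4.

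Genes of DNA replication rose in 14 of 30 tested members and fell in 0, with a median log2 fold change of 0.84. The number higher was 4 without unmarked GFP 4, 6 without marked GFP 3 or marked Thy1.1 1, and 8 without marked Thy1.1 2 or unmarked Thy1.1 1. The helicase subunits Mcm2, Mcm5 and Mcm6 rose by 0.72 (adjusted p = 0.00619), 0.98 (adjusted p = 0.00730) and 0.79 (adjusted p = 0.0112), and thymidine kinase (Tk1, exons overlapping Afmid) had 53.8 and 38.9 CPM in marked cells, against 13.6 and 13.9 CPM in unmarked cells (1.75, adjusted p = 0.00381). These 4 genes held in every fit. Mitosis genes rose in 8 of 30 and fell in 0, with 0 higher without marked GFP 3 or unmarked GFP 4, and 5 without marked Thy1.1 1 or unmarked Thy1.1 1. Birc5, the survivin gene, had 82.8 and 51.0 CPM in marked cells, against 22.7 and 11.2 CPM in unmarked cells (1.98, adjusted p = 0.0230), with an adjusted p of 0.0937 without marked GFP 3 and 0.112 without unmarked GFP 4 and a log2 fold change of 2.58 without unmarked GFP 3. Stmn1, a microtubule regulator, rose by 1.32 (adjusted p = 0.0173), with an adjusted p of 0.0707 without marked GFP 3 and 0.0982 without unmarked GFP 4. Mki67, the proliferation marker, had 48.4 and 54.4 CPM in marked cells, against 23.2 and 19.6 CPM in unmarked cells, a log2 fold change of 1.27 ± 0.38 (SE) that did not pass the test (adjusted p = 0.0679), although both marked libraries were above both unmarked libraries.

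Among G1 cyclins and inhibitors of cyclin-dependent kinases, 4 of 17 rose and 1 fell, with 0 higher without marked GFP 3 or unmarked GFP 4, and 2 without marked GFP 4, unmarked GFP 3, marked Thy1.1 1 or marked Thy1.1 2. Cdkn1c, which encodes the inhibitor p57, was the gene that fell, with no count in marked cells and 163 counts in unmarked cells, at least 49.2-fold lower against 3 counts over both marked libraries (adjusted p = 0.00547). Ccne2, a cyclin of S phase entry that overlaps Ints8, rose by 1.30 (adjusted p = 0.0141), with an adjusted p of 0.0564 without marked GFP 3 and 0.0820 without unmarked GFP 4, and the inhibitor gene Cdkn2c rose by 1.61 (adjusted p = 0.0180), with an adjusted p of 0.0703 without marked GFP 3 and 0.114 without unmarked GFP 4.

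Glycolysis genes rose in 10 of 23 tested members and fell in 3, with 4 higher without unmarked GFP 4, and 6 without marked Thy1.1 1 or unmarked Thy1.1 1. Aldoa (overlapping Fam57b) rose by 0.93 (adjusted p = 0.00292) and Tpi1 (overlapping Spsb2) by 1.11 (adjusted p = 0.00721). Those that fell included Ldhb, above, and the enolase Eno3, with 6.95 and 8.38 CPM in marked cells, against 31.1 and 35.8 CPM in unmarked cells (-2.13, adjusted p = 0.00419). These 4 held in every fit. Respiratory chain genes rose in 10 of 30 and fell in 0, with 0 higher without unmarked GFP 4, 1 without marked GFP 3 or marked Thy1.1 1, 2 without marked Thy1.1 2 or unmarked Thy1.1 1, and 4 without unmarked Thy1.1 2. Cox8a, a cytochrome c oxidase subunit, rose by 0.74 (adjusted p = 0.0115), with an adjusted p of 0.0630 without unmarked GFP 4. Chaperone genes of the endoplasmic reticulum rose in 10 of 20 and fell in 0, with 1 higher without unmarked GFP 4, 3 without marked GFP 3, 4 without marked Thy1.1 1, marked Thy1.1 2, unmarked Thy1.1 1 or unmarked Thy1.1 2, and 6 without marked GFP 4. Manf, a secreted stress factor overlapping Rbm15b, had 124 and 128 CPM in marked cells, against 70.8 and 66.2 CPM in unmarked cells (0.88, adjusted p = 0.00381) and held in every fit. In all 3 of these lists the number higher was smallest without unmarked GFP 4.

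Survival genes of the BCL2 family rose in 2 of 16 and fell in 2, with 0 higher without marked GFP 3 or unmarked GFP 4 and 1 lower without marked GFP 3 or unmarked GFP 4. Against the fall of Bcl2, the near-identical genes Bcl2a1b and Bcl2a1d changed by 0.87 (adjusted p = 0.0135) and 1.07 (adjusted p = 0.0181), with an adjusted p of 0.0522 without marked GFP 3 and 0.0842 without unmarked GFP 4 for Bcl2a1b and of 0.0663 without marked GFP 3 and 0.0974 without unmarked GFP 4 for Bcl2a1d. Mcl1 fell by 0.47 (adjusted p = 0.0202), with an adjusted p of 0.0816 without marked GFP 3 and 0.0960 without unmarked GFP 4. None of 30 ribosomal protein genes passed edgeR's test, with a median of 0.05, 2 at an unadjusted p under 0.05 and 0 calls by DESeq2. None of 12 genes of handling stress passed edgeR's test, with a median of 0.20, 2 at an unadjusted p under 0.05 and 1 call by DESeq2. Of 8 GIMAP genes, GTPases of lymphocyte survival, Gimap7 changed by 0.61 (adjusted p = 0.0237) and Gimap3 by -0.48 (adjusted p = 0.0127), with an adjusted p of 0.0625 without marked GFP 3, 0.0630 without unmarked GFP 3, 0.117 without unmarked GFP 4, 0.0583 without marked Thy1.1 1, 0.0510 without marked Thy1.1 2, 0.0584 without unmarked Thy1.1 1 and 0.0514 without unmarked Thy1.1 2 for Gimap7 and of 0.0545 without marked GFP 3 for Gimap3. Cholesterol and fatty acid synthesis gave 1 call of 29, Ebp (0.70, adjusted p = 0.0169). The call had an adjusted p of 0.0634 without marked GFP 3 and 0.101 without unmarked GFP 4. Of 18 amino acid transporters 2 rose and 2 fell, with 0 higher without unmarked GFP 4, marked Thy1.1 1, marked Thy1.1 2, unmarked Thy1.1 1 or unmarked Thy1.1 2, and 1 without marked GFP 3, marked GFP 4 or unmarked GFP 3, and with 0 lower without unmarked GFP 4, and 1 without marked GFP 3, unmarked GFP 3, marked Thy1.1 1, marked Thy1.1 2 or unmarked Thy1.1 2. Among them Slc38a2, a glutamine carrier, fell by 0.69 (adjusted p = 0.0163), with an adjusted p of 0.0921 without unmarked GFP 4.

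Several markers of other cells were called as well, against 12.6% of all tested genes. The share called was 12.5% of conventional dendritic and class II, 18.2% of B cell and 25.0% of stromal and epithelial markers. It was 28.6% of CD8 T and NK, 33.3% of neutrophil and 37.5% of plasmacytoid dendritic markers. In the other lists edgeR called no marker: monocyte and macrophage (12 tested), plasma cell (3), erythroid (4), platelet (1), basophil and mast (2) and gamma-delta T and innate lymphoid (2). Of those, DESeq2 called 2 erythroid, 1 monocyte and macrophage and 1 basophil and mast marker. Of 16 tested plasmacytoid dendritic markers, 5 were lower and 1 higher in marked cells. Atp1b1, a sodium pump subunit, had 13.3 and 13.9 CPM in marked cells, against 62.7 and 63.8 CPM in unmarked cells (-2.22, adjusted p = 0.00158, exons overlapping Nme7), and Tlr7, a receptor for viral RNA, had 2.82 and 3.49 CPM in marked cells, against 19.2 and 47.9 CPM in unmarked cells (-3.41, adjusted p = 0.00793, -2.61 without unmarked GFP 4). Ly6d, a lymphoid progenitor marker, had 0 and 0 CPM in marked and 9.60 and 3.50 CPM in unmarked cells and was at least 182-fold lower against 3 counts over both marked libraries (adjusted p = 0.00548, -10.28 without unmarked GFP 3). All 3 were present in unmarked GFP 4, where Siglech was at 0. Of 8 tested stromal and epithelial markers, 1 was higher and 1 lower. Epcam, an epithelial adhesion molecule, had 46.7 and 31.4 CPM in marked cells, against 18.1 and 11.1 CPM in unmarked cells (1.42, adjusted p = 0.0194). This call had an adjusted p of 0.0721 without marked GFP 3 and 0.0947 without unmarked GFP 4. Pecam1, an adhesion molecule of endothelium and leukocytes, had 98.1 and 156 CPM in marked cells, against 275 and 304 CPM in unmarked cells (-1.19, adjusted p = 0.00917). That call had an adjusted p of 0.0587 without unmarked GFP 4. Mmp9, a matrix protease, was the 1 neutrophil marker of 3 that was higher, with 166 and 127 CPM in marked cells, against 63.7 and 40.2 CPM in unmarked cells (adjusted p = 0.0204), and Cst3, a cysteine protease inhibitor, the 1 of 8 conventional dendritic and class II markers, with 129 and 134 CPM in marked cells, against 92.6 and 75.4 CPM in unmarked cells (0.64, adjusted p = 0.0193). The adjusted p was 0.0776 without marked GFP 3 and 0.117 without unmarked GFP 4 for Mmp9 and 0.0514 without marked GFP 3, 0.0982 without unmarked GFP 4, 0.0535 without marked Thy1.1 1 and 0.0512 without unmarked Thy1.1 1 for Cst3. Of 11 B cell markers 2 were lower, Cr2 with 0.226 and 0.0806 CPM in marked cells, against 1.75 and 5.61 CPM in unmarked cells (-4.55, adjusted p = 0.0230) and Bank1 with 0.993 and 0.322 CPM in marked cells, against 3.68 and 2.99 CPM in unmarked cells (-2.33, adjusted p = 0.0293). The adjusted p was 0.0545 without marked GFP 4, 0.115 without unmarked GFP 4, 0.0506 without marked Thy1.1 1 and 0.0533 without marked Thy1.1 2 for Cr2 and 0.0708 without unmarked GFP 3, 0.0872 without unmarked GFP 4, 0.0633 without marked Thy1.1 1, 0.0653 without marked Thy1.1 2, 0.0568 without unmarked Thy1.1 1 and 0.0582 without unmarked Thy1.1 2 for Bank1, and the log2 fold change was -5.47 without marked GFP 3, -5.16 without unmarked GFP 3 and -3.48 without unmarked GFP 4 for Cr2 and -3.36 without marked GFP 3 for Bank1. The 2 of 7 CD8 T and NK markers that were lower were Cd8b1 and Eomes, with 0 lower without unmarked GFP 4, and 1 without unmarked GFP 3, unmarked Thy1.1 1 or unmarked Thy1.1 2.

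The 2 unmarked libraries were not equally far from marked cells. Of the 873 genes called higher, unmarked GFP 3 exceeded unmarked GFP 4 in 679 (77.8%), and of the 895 called lower it was below unmarked GFP 4 in 666 (74.4%). Over all tested genes unmarked GFP 3 was the higher of the 2 in 50.2%. Unmarked GFP 3 thus lay between unmarked GFP 4 and the marked libraries for most called genes. The marked libraries were closer to even: marked GFP 3 exceeded marked GFP 4 in 576 (66.0%) of the genes called higher and was below it in 502 (56.1%) of those called lower, against 51.5% higher over all tested genes.

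The same label contrast in Thy1.1 cells, which share no library with the GFP contrast, made 0 calls with edgeR, 1063 genes at an unadjusted p under 0.05 and 148 calls with DESeq2. The GFP allele carries the receptor for the diphtheria toxin given, while the other allele carries Thy1.1. The reporters therefore differ in exposure to the toxin, and reporter and toxin cannot be told apart. Whether the label difference depended on the reporter was tested directly by the interaction of label and reporter, which called 62 of 13989 genes (0.443%), 13 with a more positive and 49 with a more negative label difference in GFP cells. These calls moved with the libraries used. They were lost without any single Thy1.1 library, fewer without unmarked GFP 4 and more without any other single GFP library. Each such fit leaves 1 of the 4 populations with 1 library. At an unadjusted p under 0.05 the interaction passed in 1792 genes.

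Id3 showed the pattern on the lower side. Against its GFP levels above it had 176 and 148 CPM in marked and 166 and 155 CPM in unmarked Thy1.1 cells, a log2 fold change of 0.01 ± 0.13 in Thy1.1 cells, with an interaction of -2.42 ± 0.19 (SE, adjusted p = 0.0129). Satb1 had 385 and 415 CPM in marked and 686 and 725 CPM in unmarked Thy1.1 cells and an interaction of -1.34 ± 0.14 (SE, adjusted p = 0.0161). In both genes the 4 Thy1.1 libraries lay closer together than the GFP populations did. Swap70 had 95.1 and 80.8 CPM in marked and 96.0 and 114 CPM in unmarked Thy1.1 cells with an interaction of -3.40 ± 0.32 (SE, adjusted p = 0.0132), and Nrp1 had 578 and 435 CPM in marked and 558 and 471 CPM in unmarked Thy1.1 cells with an interaction of -1.47 ± 0.23 (SE, adjusted p = 0.0478). On the higher side Gpr15 had 55.4 and 52.9 CPM in marked and 18.01 and 22.7 CPM in unmarked Thy1.1 cells and an interaction of 1.70 ± 0.26 (SE, adjusted p = 0.0478), and Itgae had 486 and 436 CPM in marked and 340.5 and 328 CPM in unmarked Thy1.1 cells and an interaction of 0.98 ± 0.12 (SE, adjusted p = 0.0194). Klrg1 had 55.5 and 45.7 CPM in marked and 27.6 and 27.6 CPM in unmarked Thy1.1 cells and an interaction of 4.76 ± 0.79 (SE, adjusted p = 0.0582), which did not pass the test.

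**Figure D5:**
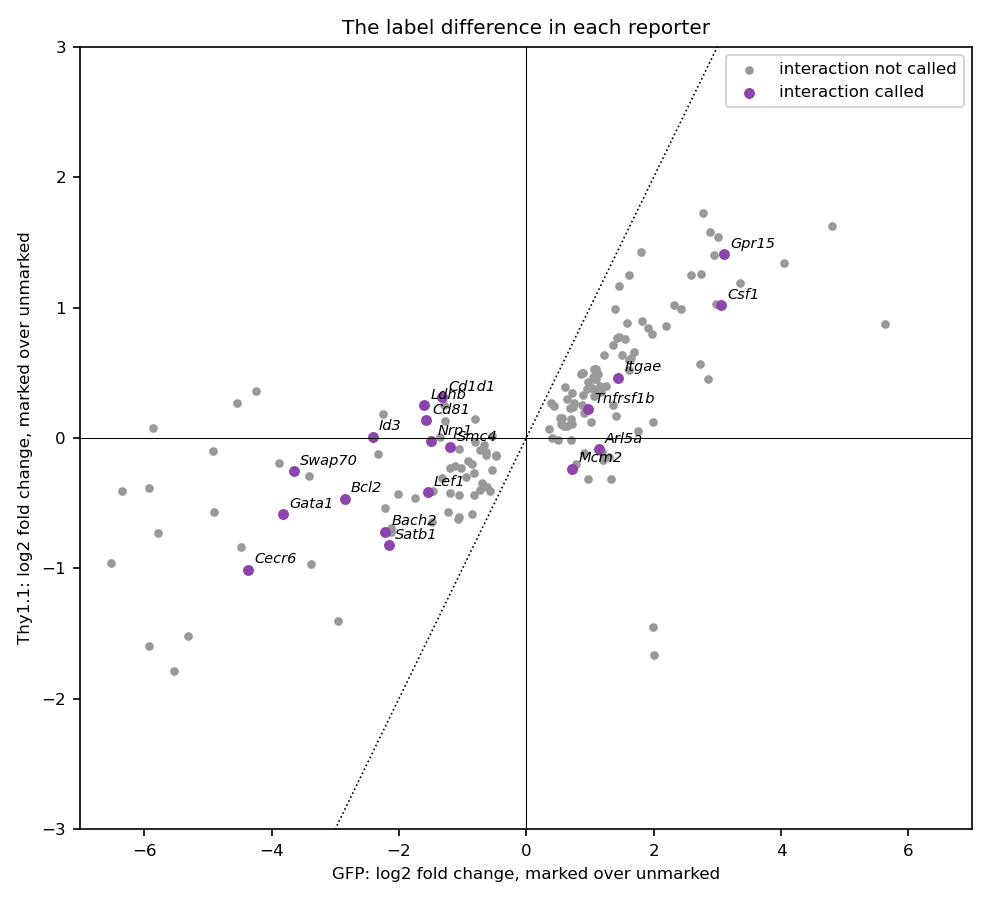
Log2 fold change of marked over unmarked cells in GFP cells (x axis) and in Thy1.1 cells (y axis, drawn on a wider scale) for 167 of the 173 named and called genes (the other 6 lay beyond 7 on an axis), with the interaction called in purple. Of the 167 points, 167 lie nearer to 0 on the y axis than on the x axis, which the choice of these genes by the GFP contrast partly fixes. The dotted line marks equal differences in both reporters.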

How the data were processed

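Sorted cells of 4 populations, 2 libraries each, were sequenced. Per the labels' protocols, cDNA was made with SMART-Seq v4, a kit that does not mark strand, over 12 amplification cycles, and libraries from 2 to 10 ng of cDNA were made with KAPA Hyper Prep over 8 PCR cycles and read as 50-base pairs. The authors deposited 1 table of whole-number counts per gene, not normalized, per the file headers. DESeq is named in the submitters' processing notes without a version, while the aligner, counter and genome build were not given in the sources used here. PCR reads carry no molecular identifiers, so intervals (95%, exact) and the 3-count limit cover counting error only.

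The Thy1.1 columns match sample titles by number. The GFP columns are numbered 3 and 4 while the titles say 1 and 2, so they were matched to their population only, and libraries are called by the column number. Of 24116 rows, 8 name no gene and were left out (0.0215 to 0.0264% of counts). Library totals ranged from 38085686 to 47908198 counts.

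Genes were kept by edgeR's filterByExpr (minimum count 10), scaled by TMM and tested with edgeR's quasi-likelihood test (edgeR 4.0.16, limma 3.58.1, R 4.3.3) in 1 fit of all 8 libraries with a mean per population, 4 residual degrees of freedom and Benjamini-Hochberg adjustment over 13989 genes at 0.05. DESeq2 1.42.0 was an alternative. A standard error is the fold change divided by the square root of the F statistic. Counts of list members stand beside the shares over all tested genes, with no set test.

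Named genes were the 15 largest changes in each direction whose mean reached 5 CPM and whose populations did not overlap, the 10 most abundant genes in each direction changed at least 2-fold, up to 4 members of each gene list with the smallest adjusted p, and several genes chosen outright. Some genes that this rule names are not reported here. The members and lists were chosen with earlier results of these data known. Overlapping exons were looked up in the GENCODE annotation of GRCm38, where 23400 of 24108 symbols (97.06%) were found, and promoters come from RefSeq (GRCm38.p6).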

Additional observations from a re-analysis of the deposited data

Results flagged for a closer look

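In 22 named genes the label difference in GFP cells differed from that in Thy1.1 cells by the interaction test of edgeR, and for these the value given is the label difference in GFP cells minus that in Thy1.1 cells, on the log2 scale. It was positive in 6 genes: 2.05 for Csf1, 1.70 for Gpr15, 1.22 for Arl5a, 0.98 for Itgae, 0.96 for Mcm2 and 0.75 for Tnfrsf1b. It was negative in 16 genes. Among genes of resting or naive T cells it was -2.39 for Bcl2, -2.42 for Id3, -1.50 for Bach2, -1.34 for Satb1 and -1.13 for Lef1. Among genes linked with thymic Treg cells or thymocytes it was -3.40 for Swap70, -1.47 for Nrp1, -1.86 for Ldhb and -1.63 for Cd1d1. The rest were Gata1 at -3.23, Cecr6 at -3.35, Cd81 at -1.71, Smc4 at -1.12, Acvr1c at -7.64, Cdkn1c at -9.64 and Selp at -11.32. For Cdkn1c and Selp, which had no count in marked GFP cells, the fitted value depends on the prior count. No interaction was called without any one of the 4 Thy1.1 libraries, where 1 population is left with a single library whose spread is taken from the others.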

How the results depend on the processing

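None of the 173 named and called genes turned its direction under an alternative. Only 11 of the named genes that were not called were followed through every alternative. Of these 11, 4 markers of other cells turned or reached 0 without 1 library. Their log2 fold changes ran from -2.08 to 0.30 for Cd74, -12.60 to 0.0044 for H2-Aa, -13.67 to 0 for Siglech and -12.02 to 1.86 for Lyz2, each highest without unmarked GFP 3. Other named genes that were not called turned as well. Without marked GFP 3, Camp went from 0.28 to -6.14 and Col1a1 from 1.96 to -0.375. Scaling with RLE factors or library totals, testing with no filter and testing only genes with a mean of at least 5 CPM left the label counts within 1.5 times, at 1711, 1680, 1696 and 2073 genes. The 4 GFP libraries alone gave 285 (100 higher, 185 lower), and DESeq2 gave 2974 (1402 higher, 1572 lower). Leaving out 1 library in turn gave 438 to 1830 in all, 162 to 804 higher and 276 to 1026 lower, smallest without unmarked GFP 4. The interaction gave 109 genes with no filter, 129 at a mean of 5 CPM, 568 with DESeq2 and 0 to 105 without 1 library. It could not be fitted with GFP libraries alone. Of the 173 called genes, 102 lost their call with GFP libraries alone and 83 without unmarked GFP 4.

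Odd and even column numbers do not pair the libraries by the labels, and deviations correlated at 0.119 across genes between the 2 GFP populations. A replicate block by that number gave 1856 label calls (906 higher, 950 lower) and 63 interaction calls, and it moved the interferon response genes to 1 higher and 6 lower, against no call without it.

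With 2 libraries a population, the spread within populations and not depth limited most tests. Genes under the 3-count limit in both populations cannot be compared.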
